A study of Mus musculus with 4 samples.

Results

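The 10 genes described here encode the kinase LKB1 with its partner proteins and, of the kinases it activates, subunits of AMPK and the 3 salt-inducible kinases (SIKs). They were taken by name, as kinases or kinase subunits that lie upstream of the phosphorylation of class IIa HDACs, and make up 10 of the 55418 genes in the count table. They are Stk11 (LKB1), Strada and Cab39 of the LKB1 complex, Prkaa1, Prkaa2, Prkab1 and Prkag1 of AMPK, and Sik1, Sik2 and Sik3. Each had counts in all 4 libraries and passed the filter on low counts, as did 18444 genes in all.

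RNA was sequenced from mouse E14 ESCs of strain 12910la, as 2 wild-type (WT) samples and 2 clones of genotype Pim3-/-, 1 library each. Both groups grew on gelatin in medium with serum and LIF, without a further treatment. Pim3 had been targeted with CRISPR/Cas9 at 2 sites in its exons, so that each knockout library stands for 1 clone, and the effect of the mutation cannot be told apart from differences between clones and cultures. The question put to these genes is whether their transcripts differ between WT and Pim3-/- ESCs, since the study placed AMPK between PIM3 and the class IIa HDACs. A transcript count does not measure the phosphorylation of a kinase.

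LKB1 is a master kinase that becomes active in a complex with the pseudokinase STRAD and the scaffold MO25, the product of Cab39. It phosphorylates a threonine in the activation loop of AMPK and of AMPK-related kinases, among them the SIKs. AMPK is a trimer of a catalytic alpha, a scaffolding beta and a nucleotide-sensing gamma subunit, and is switched on when cellular energy is low. AMPK and the SIKs phosphorylate class IIa HDACs, which are then bound by 14-3-3 proteins and held in the cytoplasm. The SIKs also phosphorylate the CRTC coactivators of CREB, and protein kinase A in turn inhibits the SIKs.

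The site at which LKB1 acts is shown for the 5 catalytic genes downstream of it, since it is what they share and since it shows how far paralogues differ at the level of the read. The stretches run from the codons for DFG to those for APE of each kinase, in the sense of the gene, on GRCm38 with the intron left out. Capitals mark the codon of the threonine that LKB1 phosphorylates.
Prkaa1: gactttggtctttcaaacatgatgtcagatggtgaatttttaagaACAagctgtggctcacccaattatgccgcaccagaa
Prkaa2: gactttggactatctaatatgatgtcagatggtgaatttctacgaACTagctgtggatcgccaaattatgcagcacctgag
Sik1: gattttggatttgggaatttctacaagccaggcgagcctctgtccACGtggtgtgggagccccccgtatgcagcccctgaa
Sik2: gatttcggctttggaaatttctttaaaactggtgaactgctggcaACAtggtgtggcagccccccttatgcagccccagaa
Sik3: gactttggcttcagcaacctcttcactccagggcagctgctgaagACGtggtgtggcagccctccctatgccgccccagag
The Prkaa1 stretch (chr15:5168706-5170002, plus strand) covers residue 183 in exons 4 and 5, and that of Prkaa2 (chr4:105049348-105051208, minus strand) residue 172 in exons 4 and 5. For the SIKs the codons are those of residue 182 of Sik1 (chr17:31850986-31851235, minus strand, exons 5 and 6), residue 175 of Sik2 (chr9:50917573-50935416, minus strand, exons 4 and 5) and residue 221 of Sik3 (chr9:46155540-46177951, plus strand, exons 4 and 5). Prkaa1 and Prkaa2 differed at 13 of these 81 bases and shared no run longer than 21 bases, and Sik1 and Sik2 were 77.8% identical. Over whole transcripts, Prkaa1, Prkaa2, Prkab1, Cab39, Sik1 and Sik3 shared no run of 50 bases with any other annotated gene. Reads of that length could therefore be assigned to one paralogue and not the other.

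The gene table held 22029427 to 25668307 counts per library. Replicates differed beyond sampling noise in both groups, with a chi-square per degree of freedom of 10.6 between the WT libraries and 50.2 between the Pim3-/- libraries. Counts are given below as deposited, CPM are counts per 1000000 after TMM scaling, and differences are log2 fold changes of Pim3-/- over WT. The TMM factors were 0.828 and 0.883 for WT and 1.168 and 1.172 for Pim3-/- libraries, and they matter here: the median log2 fold change of all tested genes was 0.07 with TMM and 0.52 with library totals, a shift of 0.45 that any single fold change carries. Pim3 had 4392 and 4953 counts in WT against 4970 and 4804 in Pim3-/- libraries (log2 fold change -0.27, adjusted p = 0.251 in edgeR), and since small exon mutations need not lower a count, it does not check the labels. The ESC marker Pou5f1 had 45110 and 48413 counts in WT against 29466 and 24659 in Pim3-/- libraries, so that it was present in every library. It was lower in Pim3-/- ESCs (log2 fold change -1.12, adjusted p = 0.00993, edgeR). Among the 75 tested genes of similar level (mean log2 CPM 10 to 11), the median was -0.87 and 66.7% were called lower. Of the 10 ESC genes, 4 had higher and 6 lower values, with 1 called higher and 4 lower. By qPCR, the paper found the expression of Oct4 (Pou5f1) not disrupted by the loss of Pim3, and it reported Nanog as upregulated. In these libraries Nanog had 18099 and 21146 counts in WT against 14747 and 11763 in Pim3-/- libraries. Its log2 fold change had the opposite sign, at -0.90 (adjusted p = 0.0155, edgeR). Among the 117 tested genes at its level (mean log2 CPM 9 to 10), the median was -0.71 and 50.4% were called lower. Markers of other cell states differed between the groups: the summed level of 8 primitive endoderm genes was 3.39 and 5.43 CPM in WT and 40.5 and 19.1 CPM in Pim3-/- libraries, that of 12 genes of the 2-cell-like state 16.7 and 15.3 against 188 and 60.9 CPM, and that of 10 ESC genes 5849 and 5731 against 4033 and 3711 CPM. The mesoderm list (6 genes) summed to 6.84 and 5.70 against 13.7 and 24.9 CPM, and the fibroblast list (8 genes) to 27.7 and 28.2 against 49.0 and 45.0 CPM, with Col3a1, Dcn and Lum at no more than 3 counts throughout. The trophoblast list (8 genes) gave 138 and 137 against 109 and 138 CPM, and the neuroectoderm list (6 genes) 148 and 138 against 114 and 103 CPM. Such sums follow the most abundant genes of a list. Of 6 tested trophoblast genes, 3 had higher and 3 lower values (median 0.63), with 2 called higher and 0 lower. Of 5 tested neuroectoderm genes, 3 had higher and 2 lower values (median 0.78), with 1 called higher and 1 lower. Of 4 tested mesoderm genes, 3 had higher and 1 a lower value (median 0.17), with 1 called higher and 0 lower. Only 3 of the 8 fibroblast genes were tested. Of these, 2 had higher and 1 a lower value, with 1 called higher and 0 lower. The part of all these markers in the results below was not tested.

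Of the 10 genes, Prkaa2 and Sik3 were higher in Pim3-/- ESCs at an adjusted p under 0.05 in edgeR's quasi-likelihood test, and none was lower. Among all 18444 tested genes, 17.6% were called higher and 16.2% lower, so that 2 of 10 is close to the share of higher calls in general. At an unadjusted p under 0.05, 3 of the 10 were higher and 3 lower. DESeq2 called 1 higher and voom after cyclic loess called 3 higher, and neither called any lower. EdgeR with DESeq2 size factors called 2 higher and 2 lower. In TMM-scaled CPM the groups did not overlap for any of the 10, with 5 higher and 5 lower in both Pim3-/- libraries, against 38.3% and 34.2% of all tested genes. These tests compare 2 libraries with 2, and an exact permutation test of a single gene cannot go below 0.333.

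**Figure D1:**
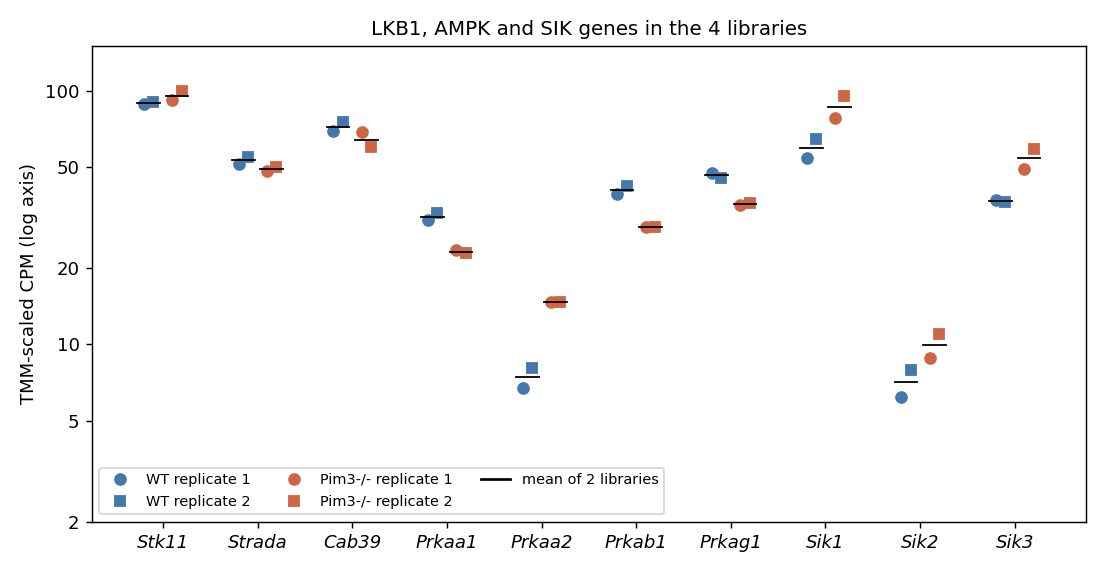
TMM-scaled CPM (log axis) of the 10 genes in the 4 libraries. Points are single libraries, with WT in blue and Pim3-/- in orange, and bars are means of 2 libraries. Prkaa2 lies at 6.74 and 8.08 CPM in WT and at 14.7 CPM in both Pim3-/- libraries, whereas Prkaa1, Prkab1 and Prkag1 lie lower in both Pim3-/- libraries than in either WT library.

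Per kilobase of exon, the order of the 10 levels in WT ESCs started with Prkag1 (21.3 ± 0.638 CPM per kb, SD, n = 2) and Stk11 (19.5 ± 0.173). Prkab1 (13.2 ± 0.690), Sik1 (11.6 ± 1.41), Cab39 (10.2 ± 0.574) and Strada (9.54 ± 0.434) followed. The ranges of Sik1 and Cab39 overlapped, as did those of Cab39 and Strada, so that these neighbours did not differ beyond their spread. Prkaa1 (6.85 ± 0.310) and Sik3 (3.94 ± 0.0374) were lower, and Prkaa2 (0.930 ± 0.119) and Sik2 (0.742 ± 0.129) were the least abundant. With the longest transcript as length, the ranks of Sik1, Cab39, Strada, Prkaa2 and Sik2 changed, so that this order holds only between neighbours far apart. In Pim3-/- ESCs Stk11 (20.9 ± 1.21) stood at the top, followed by Sik1 (16.8 ± 2.37) and Prkag1 (16.5 ± 0.231), whose ranges overlapped. Sik3 (5.81 ± 0.733) lay above Prkaa1 (4.99 ± 0.0860) in both Pim3-/- libraries, whereas it lay below Prkaa1 in both WT libraries.

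None of the 3 LKB1 complex genes passed the test with TMM scaling. Stk11 (chr10:80115803-80130682, plus strand), the kinase itself, had 1703 and 2039 counts in WT against 2446 and 2565 in Pim3-/- libraries. Scaled, that is 89.5 ± 0.791 CPM (SD, n = 2) against 95.6 ± 5.55 CPM, a log2 fold change of 0.09 with a 95% interval of -0.28 to 0.47 (adjusted p = 0.671, edgeR). The raw counts were higher in both Pim3-/- libraries, but the scaled levels lay close together, and with library totals the fold change was 0.55 (adjusted p = 0.0365). Of the Stk11 exons, 5.07% overlap those of Cbarp on the other strand, which had 242 and 231 counts in WT against 672 and 747 in Pim3-/- libraries.

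Strada (chr11:106163330-106202168, minus strand), the pseudokinase that activates LKB1, had 985, 1242, 1284 and 1291 counts in WT replicates 1 and 2 and Pim3-/- replicates 1 and 2. Its log2 fold change was -0.11 (interval -0.48 to 0.25, adjusted p = 0.593, edgeR). Cab39 (chr1:85793441-85851576, plus strand), the scaffold MO25 alpha, had 1326, 1698, 1826 and 1542 counts in the same order and a log2 fold change of -0.17 (interval -0.55 to 0.21, adjusted p = 0.449, edgeR). Neither passed the test, and both signs depended on the scaling: with library totals the values were 0.34 and 0.28, and with cyclic loess 0.12 and 0.13. Summed per kilobase, Stk11, Strada and Cab39 came to 39.3 ± 1.18 CPM per kb in WT and 38.7 ± 0.604 in Pim3-/- ESCs.

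Among the AMPK subunits, the 2 catalytic genes differed in direction. Prkaa2 (chr4:105029874-105109890, minus strand), which encodes the alpha 2 subunit known from muscle and other differentiated tissues, had 129 and 183 counts in WT against 393 and 379 in Pim3-/- libraries. Both Pim3-/- libraries lay well above both WT libraries and close to each other, at 14.7 ± 0.0160 CPM (SD, n = 2) against 7.41 ± 0.951 CPM. This was a 1.98-fold increase (log2 fold change 0.99, standard error (SE) 0.22, adjusted p = 0.0154, edgeR). Prkaa2 was called higher under all 7 other settings that kept 4 libraries, at log2 fold changes from 0.88 with cyclic loess to 1.44 with library totals. The call was lost without WT replicate 1 (0.81, adjusted p = 0.240) and without WT replicate 2 (1.04, adjusted p = 0.126), where the single WT library left is assumed to vary as the Pim3-/- clones do. The Prkaa2 level was 14.7 CPM in each clone. Beside it, the summed ESC and fibroblast markers were also alike in the clones and differed from WT, at 4033 and 3711 CPM and at 49.0 and 45.0 CPM. Of the fibroblast genes only 3 were tested, with 2 higher and 1 lower, so this sum does not stand for the list. The endoderm and 2-cell-like markers differed between the clones. The part of these markers in the Prkaa2 value was not tested.

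Prkaa1 (chr15:5143861-5181899, plus strand), which encodes alpha 1, had 591 and 745 counts in WT against 627 and 591 in Pim3-/- libraries. The raw counts overlapped, and after scaling the Pim3-/- libraries were lower, at 23.2 ± 0.40 CPM against 31.9 ± 1.44 CPM. Its log2 fold change of -0.46 (SE 0.16, interval -0.84 to -0.08) did not pass after adjustment (adjusted p = 0.0652, edgeR). Prkab1 (chr5:116013586-116024508, minus strand), the beta 1 subunit, had 747, 951, 772 and 749 counts and a log2 fold change of -0.48 (SE 0.16, adjusted p = 0.0516, edgeR). Both lay at the edge of the threshold, and with DESeq2 size factors they passed, at -0.50 (adjusted p = 0.0496) and -0.52 (adjusted p = 0.0392). With library totals they were at -0.01 and -0.03.

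Prkag1 (chr15:98812797-98831521, minus strand), the gamma 1 subunit, had 907, 1028, 947 and 933 counts, or 46.4 ± 1.39 CPM in WT against 35.8 ± 0.503 CPM in Pim3-/- ESCs. The log2 fold change was -0.37 (interval -0.74 to -0.01, adjusted p = 0.101, edgeR), and with library totals it was 0.08. The antisense gene B130046B21Rik overlaps 43.7% of the Prkag1 exons and had 769, 916, 852 and 839 counts, so that reads of the pair cannot be told apart if strand was not used.

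**Figure D2:**
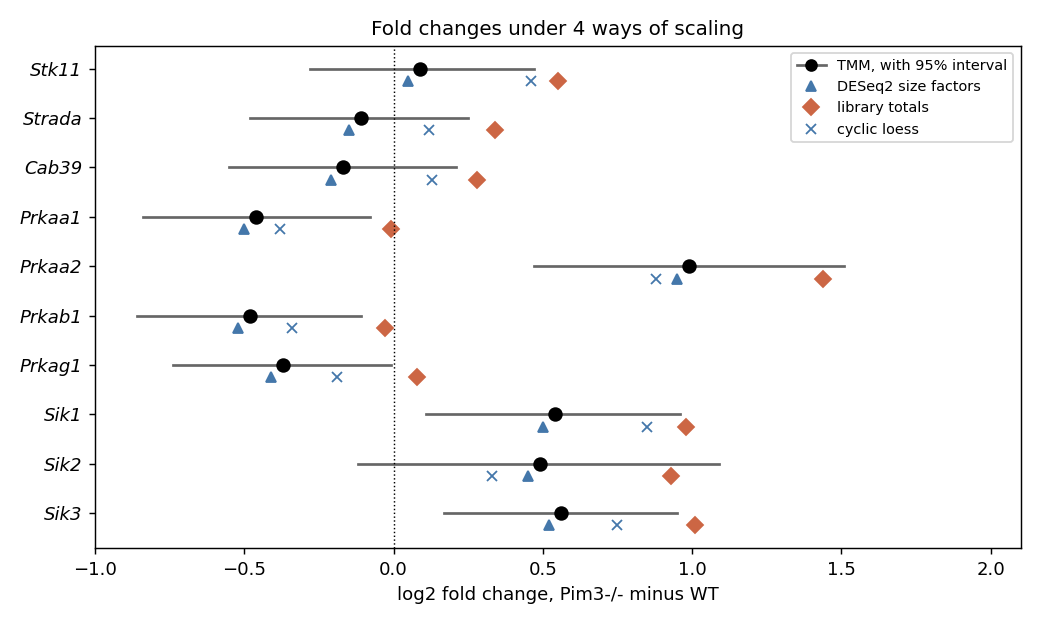
Log2 fold change of Pim3-/- over WT for the 10 genes. Black points with lines are the values and 95% intervals with TMM scaling, and the marks below each are the values with DESeq2 size factors, library totals and cyclic loess. Prkaa2, Stk11 and the 3 SIK genes lie above 0 under all 4, whereas Strada, Cab39 and Prkag1 change sign with library totals.

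Because the scaling decides the sign for several subunits, counts were also compared between genes within a library, which no scaling of the library can change. The ratio of Prkaa2 to Prkaa1 was 0.218 and 0.246 in WT and 0.627 and 0.641 in Pim3-/- libraries. This was 2.74-fold higher, 1.45 on the log2 scale, beside SDs of 0.12 and 0.02 within the groups. Per kilobase, Prkaa2 made up 11.3% and 12.5% of the alpha transcripts in WT and 26.8% and 27.3% in Pim3-/- libraries. The alpha transcripts together came to 7.78 ± 0.429 CPM per kb in WT and 6.83 ± 0.0880 in Pim3-/- ESCs, so the alpha 1 transcript was still the more abundant of the pair.

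The second beta subunit moved in the same direction as the second alpha subunit. Prkab2, which encodes beta 2, had 162 and 256 counts in WT against 396 and 488 in Pim3-/- libraries. Its log2 fold change was 0.77 (SE 0.24, adjusted p = 0.0447, edgeR), a call that was lost with cyclic loess (adjusted p = 0.0626) and with no filter (adjusted p = 0.0617). The ratio of Prkab2 to Prkab1 was 0.217 and 0.269 in WT and 0.513 and 0.652 in Pim3-/- libraries, or 2.39-fold higher. Per kilobase the beta 2 share of beta transcripts was 11.5% and 13.9% against 23.6% and 28.2%.

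The gamma subunits differed less. Prkag2, the gamma 2 gene, had 200 and 204 counts in WT against 283 and 263 in Pim3-/- libraries and a log2 fold change of 0.10 (adjusted p = 0.758, edgeR). The ratio of Prkag2 to Prkag1 was 0.221 and 0.198 against 0.299 and 0.282, 1.39-fold higher, and rests in part on the Prkag1 count with its antisense overlap. Prkag3, the muscle gamma 3 gene, had 1 and 2 counts in WT against 21 and 8 in Pim3-/- libraries and did not pass the filter.

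In the LKB1 complex, the ratio of Stradb to Strada was 0.207 and 0.182 in WT and 0.360 and 0.270 in Pim3-/- libraries, or 1.60-fold higher. Stradb itself, with 204, 226, 462 and 348 counts, had a log2 fold change of 0.58 (adjusted p = 0.0807, edgeR). Cab39l, the paralogue of Cab39, had a ratio to Cab39 that overlapped between the groups, at 0.616 and 0.499 against 0.513 and 0.620. Stk11 was 1.15-fold higher relative to Strada and 1.20-fold higher relative to Cab39, without overlap of the groups. Each of these ratios without overlap reached the smallest p that the exact two-sided permutation test allows for 2 against 2 libraries, 0.333, so the test cannot call any of them.

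**Figure D3:**
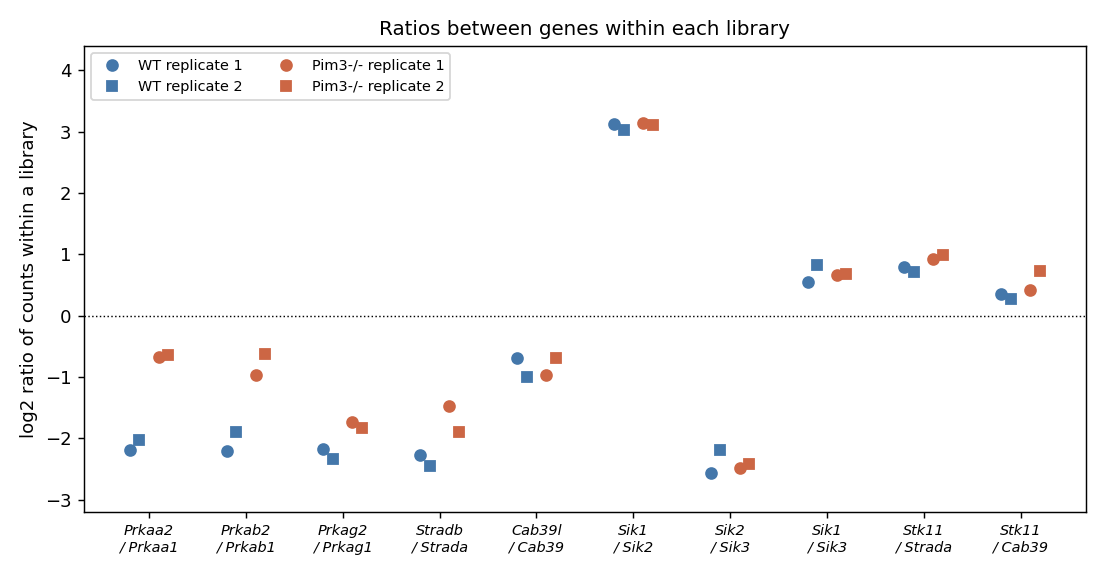
Log2 ratio of the counts of 2 genes within each library, for 10 pairs. Blue points are WT and orange points Pim3-/- libraries. The ratios of the second to the first alpha and beta subunit lie 1.45 and 1.26 higher in Pim3-/- libraries, whereas the 3 ratios among the SIK genes overlap between the groups.

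The 3 SIK genes were all higher in both Pim3-/- libraries than in either WT library, and by a similar factor. Sik1 (chr17:31844250-31855804, minus strand), the SIK that is itself induced through CREB in many cells, had 1041 and 1462 counts in WT against 2073 and 2446 in Pim3-/- libraries. That is 59.5 ± 7.22 CPM (SD, n = 2) against 86.3 ± 12.2 CPM, a log2 fold change of 0.54 (SE 0.18, adjusted p = 0.0569, edgeR) that did not pass. It passed with library totals (0.98, adjusted p = 0.00712), with cyclic loess (0.85, adjusted p = 0.0217) and when every library had to hold 10 counts (0.62, adjusted p = 0.0400).

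Sik3 (chr9:46012820-46224194, plus strand), the SIK studied for its roles in the skeleton and in sleep, had 708 and 826 counts in WT against 1315 and 1519 in Pim3-/- libraries. Its level rose from 36.7 ± 0.348 CPM to 54.1 ± 6.83 CPM, or 1.47-fold (log2 fold change 0.56, SE 0.17, adjusted p = 0.0385, edgeR). The call was lost in DESeq2 (0.52, adjusted p = 0.0780), with no filter (0.52, adjusted p = 0.0722) and without either WT library (0.52 and 0.47, adjusted p = 0.355 and 0.372). Sik1, Sik3 and Sik2 (11.0 against 8.84 CPM) were higher in Pim3-/- replicate 2 than in replicate 1. So were the summed mesoderm markers (24.9 against 13.7 CPM) and the summed trophoblast markers (138 against 109 CPM). Of the 4 tested mesoderm genes, 3 had higher and 1 a lower value than in WT. The summed ESC, fibroblast, neuroectoderm, endoderm and 2-cell-like markers were higher in replicate 1. The part of these markers in the SIK values was not tested.

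Sik2 (chr9:50892801-51009073, minus strand), the SIK first described in adipose tissue, had 119 and 180 counts in WT against 236 and 284 in Pim3-/- libraries. Its log2 fold change of 0.49 had the widest interval of the 10, from -0.12 to 1.09, and did not pass (adjusted p = 0.180, edgeR). Of its exons, 15.0% overlap those of Ppp2r1b on the other strand, which had 1706, 2166, 2224 and 1746 counts.

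Relative to each other the SIK genes differed little between the groups. The ratio of Sik1 to Sik2 was 8.75 and 8.12 in WT and 8.78 and 8.61 in Pim3-/- libraries. For Sik1 to Sik3 it was 1.47 and 1.77 against 1.58 and 1.61, and for Sik2 to Sik3 it was 0.168 and 0.218 against 0.179 and 0.187. The differences of the mean log2 ratios were 0.05, -0.02 and -0.06, within the SDs of the WT pair (0.08, 0.19 and 0.26). Summed per kilobase, the SIK transcripts came to 16.3 ± 1.5 CPM per kb in WT and 23.7 ± 3.27 in Pim3-/- ESCs, with Sik2 at 4.28% to 4.81% of the sum in each library.

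Fold changes in these libraries depended on the level of the gene, and each of the 10 was therefore set beside genes of its own range of level, 1 log2 unit wide. The median log2 fold change was 0.14 among the 2238 genes at a mean log2 CPM of 3 to 4, the range of Prkaa2 and Sik2. It was -0.34 among the 1704 genes at 6 to 7, the range of Sik1, Cab39 and Stk11. Among the 396 genes at -2 to -1 it was 1.71, but such genes can pass the filter only through the group where they are higher. That lowest range therefore cannot show a dependence on level. Sik1 lay 0.88 above its range's median, Prkaa2 0.85, Sik3 0.71, Stk11 0.43 and Sik2 0.35. In the same order, 91.8%, 87.1%, 86.3%, 75.9% and 67.6% of the genes in the range had a lower fold change. Cab39 (0.17) and Strada (0.04) lay near the median of their range, and Prkaa1 (-0.45), Prkab1 (-0.33) and Prkag1 (-0.22) lay below it. For these last genes, 25.9%, 30.8% and 36.8% of the range had a lower fold change still. The gap between the range medians was 0.15 for Prkaa2 and Prkaa1 and 0.29 for Prkab2 and Prkab1, beside differences of their ratios of 1.45 and 1.26. For Prkag2 and Prkag1 the gap was also 0.29, beside a difference of 0.47.

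**Figure D4:**
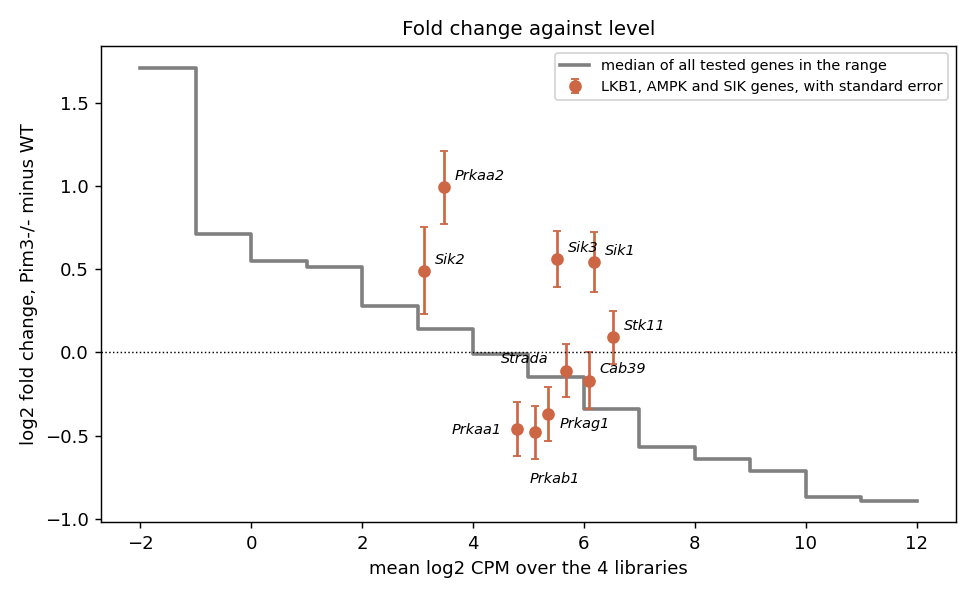
Log2 fold change of Pim3-/- over WT against mean log2 CPM. The grey line is the median of all tested genes in ranges 1 unit wide that hold at least 50 genes, and points are the 10 genes with standard errors. The grey line falls from left to right, Sik1, Sik3 and Prkaa2 lie 0.88, 0.71 and 0.85 above it, and Prkaa1 lies 0.45 below it.

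When counts were scaled by library totals, 5 of the 10 genes were called higher and 0 lower (0 lower also at an unadjusted p under 0.05), beside 35.8% and 5.92% of all tested genes. These were Stk11, Prkaa2, Sik1, Sik2 and Sik3, the 5 that were higher with TMM as well. Under TMM, DESeq2 size factors, library totals and cyclic loess, Prkaa2, Stk11 and the SIK genes kept a positive sign. Prkaa1 and Prkab1 kept a negative one, but with library totals they were at only -0.01 and -0.03.

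The promoters of Prkaa2 and Sik3 are shown because these were the genes called higher, a choice made after their values were seen. They were searched for the CRE half-site of CREB (TGACG, or CGTCA on the other strand), since Sik1 is a known CREB target and the SIKs act on CRTCs. The stretches are the 250 bases before the RefSeq start on GRCm38.p6, at chr4:105109899-105110148 (minus strand) for Prkaa2 and chr9:46012570-46012819 (plus strand) for Sik3, in the sense of the gene, with half-sites in capitals.
Prkaa2: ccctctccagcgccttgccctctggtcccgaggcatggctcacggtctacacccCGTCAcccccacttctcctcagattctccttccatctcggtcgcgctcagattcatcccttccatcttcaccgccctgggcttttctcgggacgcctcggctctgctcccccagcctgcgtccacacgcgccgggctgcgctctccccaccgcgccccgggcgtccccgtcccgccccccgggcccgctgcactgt
Sik3: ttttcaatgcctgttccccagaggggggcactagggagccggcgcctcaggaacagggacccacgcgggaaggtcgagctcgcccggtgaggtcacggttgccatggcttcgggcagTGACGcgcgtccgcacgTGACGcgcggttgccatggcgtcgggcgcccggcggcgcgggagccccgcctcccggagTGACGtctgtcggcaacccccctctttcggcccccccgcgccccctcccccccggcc
Prkaa2 held 1 half-site, at -196 from the start, and Sik3 held 3, at -133, -116 and -57. Both stretches were rich in G and C (70% and 74%). Over 250 bases before to 50 after the start, 6 of the 9 genes found in the RefSeq table held a half-site (Stk11, Cab39, Prkaa2, Prkag1, Sik2 and Sik3), beside 20.8% of all 32851 promoters. Sik1 was not searched. Stk11, Prkaa2, Sik2 and Sik3 had higher and Cab39 and Prkag1 lower values in Pim3-/- ESCs, so the half-site was found on both sides. The full CRE (TGACGTCA, its own reverse complement) was in none of the 9 and in 1.79% of all promoters. The GC box (GGGCGG or CCGCCC) was in 7 of the 9 and in 35.7% of all promoters. The half-site and the GC box each contain CG, and the 32851 promoters were not matched to the 9 in G and C content. The shares beside them therefore cannot show an excess of CREB half-sites in these genes. All motif hits are matches of letters, not sites shown to be bound.

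The genes around LKB1, AMPK and the SIKs were taken as 12 lists of 93 genes, of which 84 passed the filter. In edgeR's test with adjustment over all tested genes, 21 of the 84 (25%) were called higher and 7 (8.33%) lower, beside 17.6% and 16.2% of all tested genes, and their median log2 fold change was 0.38 beside 0.07. With library totals 45 of the 84 were called higher, but so were 35.8% of all tested genes.

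Of the other kinases that act on AMPK, Camkk1, Camkk2 and Map3k7, edgeR with TMM called none, with 0 higher and 1 lower (Camkk2, -0.52) at an unadjusted p under 0.05. DESeq2 called none either, and Map3k7 was called with library totals and with cyclic loess. Map3k7 (TAK1) had 1032 and 1275 counts in WT against 1729 and 2026 in Pim3-/- libraries, with a log2 fold change of 0.38 (adjusted p = 0.121, edgeR). Of the 9 other AMPK-related kinases, which LKB1 also activates, 4 (44.4%) were called higher, beside 17.6% of all tested genes. The median was 0.74 over the 9. The called genes were Snrk, Mark1, Mark2 and Brsk1. Snrk and Mark1 lay in a range of level with a median of 0.28 and 22.4% called higher. Mark2 and Brsk1 lay in a range with a median of -0.15 and 13.6% called higher. Snrk, a kinase of the family known from heart and neurons, had 50 and 60 counts in WT against 231 and 316 in Pim3-/- libraries (log2 fold change 1.99, adjusted p = 0.00526, edgeR). Brsk1, a kinase of neuronal polarity, had 476, 554, 936 and 1223 counts (0.74, adjusted p = 0.0248, edgeR).

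Other kinases that phosphorylate class IIa HDACs, the CaMK and PKD families, gave 3 of 9 tested genes (33.3%) called higher, with a median of 0.40. Among all tested genes 17.6% were called higher. The 3 lay in ranges of level with medians of 0.14 to 0.55 and 20.1% to 25.1% called higher. Camk2b rose from 153 and 219 counts to 644 and 366 counts (log2 fold change 1.12, adjusted p = 0.0238, edgeR). Prkd1 had 2 and 4 counts in WT against 31 and 54 in Pim3-/- libraries (3.46, adjusted p = 0.00809, edgeR). It passed the filter only through the Pim3-/- group and was not tested where each library had to hold 10 counts, so its fold is uncertain, and a gene that passes in this way had to differ. Under cyclic loess the Camk2b call was lost (adjusted p = 0.0508) and 1 gene of the list was called. Of the class IIa HDACs, the shared substrates, Hdac4 had 407 and 587 counts in WT against 1045 and 872 in Pim3-/- libraries (0.63, adjusted p = 0.0355, edgeR), and Hdac5 had 745, 888, 1362 and 2028 counts (0.73, adjusted p = 0.0398, edgeR). Hdac7 was at 0.19 and Hdac9 was not tested. The Hdac4 call was lost in DESeq2 (adjusted p = 0.0564) and with no filter (adjusted p = 0.0609).

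The 14-3-3 genes, whose proteins bind phosphorylated HDACs, had negative values in 7 of 7, and 3 (Ywhaq, Ywhaz and Sfn) were called lower. Sfn (14-3-3 sigma) fell from 2094 and 2477 counts to 1002 and 526 counts (log2 fold change -1.92, adjusted p = 0.00522, edgeR). Ywhaz (14-3-3 zeta) had 6774, 8678, 6145 and 5796 counts (-0.70, adjusted p = 0.0226, edgeR). These are abundant genes, in ranges of level whose medians were -0.34 to -0.71 and in which 36% to 51.2% of all tested genes were called lower, a range that holds the 3 of 7 (42.9%) counted here. With cyclic loess 1 of the 7 was called lower and 1 higher, with Ywhaz at -0.11.

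Of 17 AMPK substrates, 7 (41.2%) were called higher and 1 (5.88%) lower, beside 17.6% and 16.2% of all tested genes, with a median of 0.57. Pfkfb3, an enzyme that promotes glycolysis, had 99 and 145 counts in WT against 817 and 1193 in Pim3-/- libraries (log2 fold change 2.73, adjusted p = 0.00274, edgeR). Srebf2, the factor that drives cholesterol synthesis, had 2767, 3437, 6367 and 5990 counts (0.67, adjusted p = 0.0218, edgeR). Mff, a receptor for mitochondrial fission, had 2240, 2435, 1845 and 1989 counts (-0.62, adjusted p = 0.0266, edgeR), a call lost with library totals and with cyclic loess. Foxo3, Ulk2, Tbc1d4 and Gys1 were also called higher, of which Ulk2 starts autophagy, whereas Gys1 makes glycogen. Tbc1d4, with 2 and 6 counts in WT, passed the filter only through the Pim3-/- group.

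Of 12 lysosomal and nutrient regulators, 1 (8.33%) was called higher and 3 (25%) lower, beside 17.6% and 16.2% of all tested genes. Flcn, a tumor suppressor that acts on AMPK and mTORC1, had 621 and 674 counts in WT against 1237 and 1478 in Pim3-/- libraries (log2 fold change 0.74, adjusted p = 0.0187, edgeR). The 3 lower genes are among the 5 Ragulator genes of the list, whose complex anchors mTORC1 and AMPK regulation at the lysosome, and the other two, Lamtor1 (-0.10) and Lamtor2 (-0.68), did not pass. Lamtor4 had 1298, 1225, 530 and 522 counts (-1.60, adjusted p = 0.00338, edgeR), Lamtor3 1347, 1647, 911 and 956 counts (-1.01, adjusted p = 0.00586, edgeR), and Lamtor5 was at -1.05.

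On the cyclic AMP side of the SIKs, 1 of 8 tested genes of protein kinase A subunits and inhibitors (12.5%) was called higher and 0 lower. Among all tested genes 17.6% were called higher and 16.2% lower. This was Prkar2b, a regulatory subunit, with 52 and 56 counts in WT against 119 and 163 in Pim3-/- libraries (log2 fold change 1.05, adjusted p = 0.0391, edgeR), a call lost in DESeq2 (adjusted p = 0.0556) and with cyclic loess (adjusted p = 0.110). Of 6 CRTC and CREB family genes, 1 (16.7%) was called higher and 0 lower, close to the share of higher calls in general. The called gene was Crtc3, a coactivator that the SIKs phosphorylate, with 7 and 7 counts against 111 and 113 (3.65, adjusted p = 0.00338, edgeR). It too passed the filter only through the Pim3-/- group and was not tested where each library had to hold 10 counts. Of 6 tested CREB targets other than Sik1, 1 (16.7%) was called higher and 0 lower, again close to that share. The called gene was Fos, with 56 and 76 counts in WT against 116 and 548 in Pim3-/- libraries (2.02, adjusted p = 0.0460, edgeR). Pim3-/- replicate 2 decided the Fos value, which was 0.45 when this library was left out (adjusted p = 0.212). In DESeq2 and with cyclic loess Fos was not called (adjusted p = 0.128 and 0.192).

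**Figure D5:**
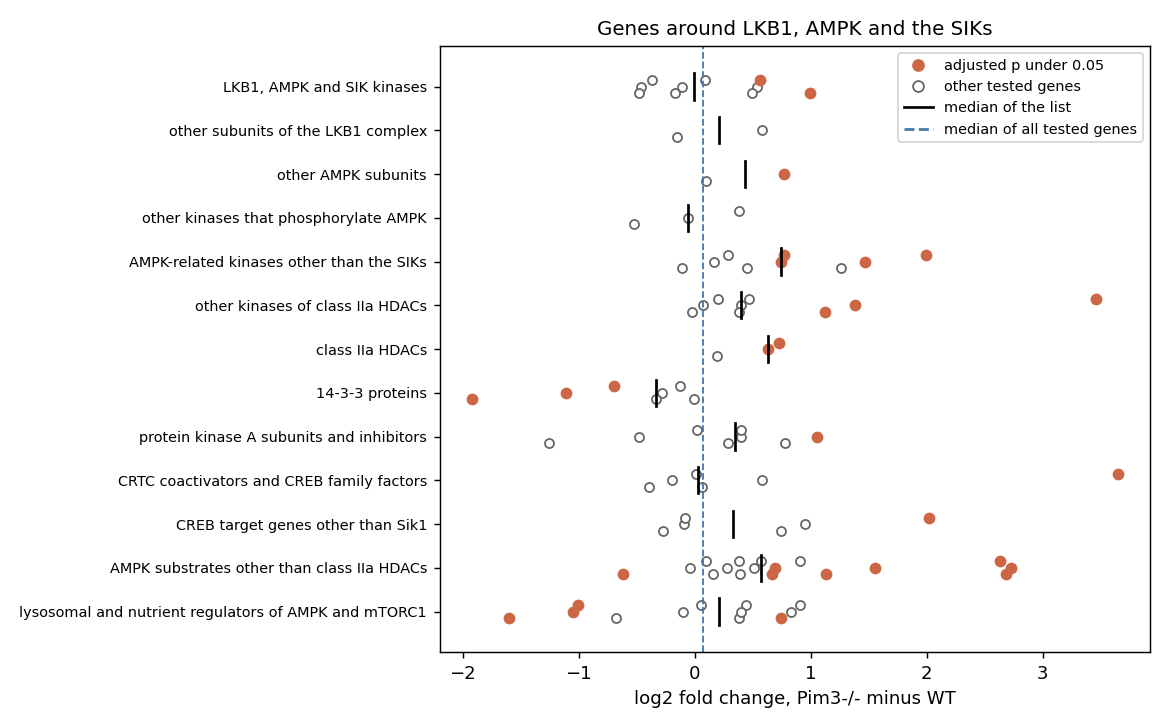
Log2 fold change of Pim3-/- over WT for each tested gene of the 10 genes and the 12 lists. Filled points passed an adjusted p under 0.05 in edgeR, black bars are the medians of the lists and the dashed line is the median of all tested genes, 0.07. The median of the AMPK-related kinases lies at 0.74 and that of the 14-3-3 genes at -0.33.

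All these libraries are bulk samples, in which a change in the number of cells that express a gene and a change in RNA per cell cannot be told apart. Among the 10 genes and the 20 named by rule from the lists, 20 were called, and 5 of these (Snrk, Sfn, Crtc3, Pfkfb3 and Lamtor4) were also called without WT replicate 1 and without WT replicate 2. This was not computed for the other called genes mentioned. Crtc3 passed the filter only through the Pim3-/- group, so that it had to differ.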

How the data were processed

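RNA-seq of 2 WT samples and 2 Pim3-/- clones of E14 ESCs was analysed. The authors deposited raw counts per gene, without normalization. Their methods name Cutadapt and Hisat2 with mm10 and Ensembl genes, whereas the submitters' processing notes list Trim Galore, STAR and featureCounts with GRCm38. Strand and multi-mapping settings are not given in the sources used here. A table of transposable elements was not used here.

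Counts were filtered with filterByExpr (minimum count 10, minimum total 15), scaled by TMM factors and compared with the quasi-likelihood test of edgeR 4.0.16, with Benjamini-Hochberg adjustment over the 18444 genes tested. Intervals (95%) and standard errors come from this fit. Standard errors are the log2 fold change divided by the square root of F. CPM are TMM-scaled counts per 1000000, and lengths are unions of exons in GENCODE M21 (GRCm38). Alternatives were DESeq2 size factors, library totals, cyclic loess with voom (limma 3.58.1), 2 other filters, DESeq2 1.42.0, a replicate block and the omission of each library. R 4.3.3, Python 3.11.15 and matplotlib 3.10.9 were used, and the scripts were tested on simulated data. There edgeR called 2 of 65 genes changed 1.5-fold, 8 of 66 changed 2-fold and 51 of 64 changed 4-fold, with 5 false calls. Far fewer genes were changed there than were called here, so these shares need not hold for the real libraries. A gene that did not pass may still differ.

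The 10 genes and the pathway and marker lists were chosen with earlier results of these data known. From each pathway list, the called genes with the largest and smallest fold change in each direction are named, provided that each library of the higher group held 10 or more counts, or, with no call, the gene of highest mean CPM. Genes named beyond this rule were chosen after their values were seen.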

Additional observations from a re-analysis of the deposited data

How the results depend on the processing

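Of the 10 genes, 5 were called higher with library totals, 1 with no filter and 1 in DESeq2, and 0 to 4 with 1 library left out. With DESeq2 size factors 2 were called lower, and 0 to 3 with 1 library left out. Over all genes, library totals gave 6606 higher and 1092 lower, and leaving out 1 library gave 402 to 5393 higher and 373 to 5255 lower, with few calls without a WT library and many without a Pim3-/- library. A group left with 1 library is assumed to vary like the other group. The genes of the pathway lists called higher were 45 with library totals and 5 to 36 with 1 library left out, and those called lower 2 to 14.

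With library totals Stk11 was at 0.55, Sik1 at 0.98 and Sik2 at 0.93, all past the threshold, whereas Strada (0.34), Cab39 (0.28), Cab39l (0.31) and Prkag1 (0.08) changed sign. With cyclic loess Strada (0.12), Cab39 (0.13) and Cab39l (0.02) changed sign and Sik1 (0.85) passed. Prkaa1 (-0.50) and Prkab1 (-0.52) passed with DESeq2 size factors, and Sik1 (0.62) with at least 10 counts in every library. Sik3 (0.52 with no filter, 0.52 in DESeq2) no longer passed. With 1 library left out, the log2 fold changes ranged from -0.56 to -0.46 for Prkaa1, 0.81 to 1.04 for Prkaa2, -0.59 to -0.50 for Prkab1, -0.49 to -0.38 for Prkag1, 0.37 to 0.66 for Sik1, 0.27 to 0.61 for Sik2 and 0.41 to 0.66 for Sik3.

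The labels do not say whether the replicate numbers pair the libraries. The deviations of same-numbered libraries from their group means correlated at 0.031 across genes. This cannot show whether they were paired, since it sets a difference between WT libraries against a larger difference between clones. With a replicate block, Sik1 passed at the same fold change (0.54, adjusted p = 0.0385), so that 3 of the 10 genes were called higher and none lower (edgeR), with 2 lower at an unadjusted p under 0.05. The block gave 3403 genes higher and 3272 lower. The cause of these differences was not tested. With 2 libraries a group, leaving out 1 moves a mean log2 ratio by less than 1 SD by construction, so the within-library ratios give no further check. The lowest WT counts of the 10 genes were 119 for Sik2 and 129 for Prkaa2.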

Other observations

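The 9 listed genes that did not pass the filter were Prkag3, Camk1g, Camk4, Hdac9, Pkib, Nr4a3, Areg, Ppargc1a and Pde4b. Nr4a3 and Ppargc1a, a CREB-induced nuclear receptor and the coactivator through which AMPK and CREB act on mitochondria, had 0 counts in each of the 4 libraries, which allows up to 0.112 to 0.157 CPM at 3 counts per library. Areg had 0 and 2 counts in WT against 6 and 4 in Pim3-/- libraries.

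Among CREB targets, Dusp1 had 681 and 745 counts in WT against 1062 and 2375 in Pim3-/- libraries (log2 fold change 0.95, adjusted p = 0.0702, edgeR), and like Fos it was higher in Pim3-/- replicate 2. Nr4a1 (1300 and 1002 counts) and Nr4a2 (35 and 28 counts) were not higher in replicate 2. Nr4a1 and Per1, with log2 fold changes of -0.09 and -0.08, had overlapping groups.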
